A study of Canis lupus familiaris with 8 samples.

Results

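Tissue from a surgical defect in the dog upper jaw, taken 2 weeks after surgery, was compared with sound jaw bone. The comparison used 4 of the study's 8 arrays, chosen by their titles, and all 15947 genes that could be named from a single-symbol probe set. The study measured total RNA of alveolar bone, the part of the jaw that carries the tooth roots, on Affymetrix whole-transcript arrays in sound and operated sites. Group C (2 arrays) was sound bone from around the maxillary premolar roots. Group D2 (2 arrays) was the new tissue that had filled the defect together with the neighbouring bone at the root of the maxillary second premolar, so each D2 array holds both repair tissue and older bone. Group D6 (2 arrays) was the same material at 6 weeks, and DT6 (2 arrays) was a 6-week defect beside a tooth that had been protracted, meaning moved forward by orthodontic force. The weeks were read from the group names. The labels give no breed, age or sex, do not say whether animals were pooled and do not tie an array to an animal. All p-values therefore measure only the spread between arrays, which may be technical.

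A bone defect heals through overlapping stages. Blood clot and inflammatory cells give way to granulation tissue, in which macrophages clear debris and fibroblasts and new vessels grow in, and dividing mesenchymal cells then lay down collagen that mineralises as woven bone. Osteoclasts, giant cells of the monocyte lineage, remodel that bone, and osteoblasts that become buried in matrix turn into osteocytes, which later make sclerostin and other regulators of bone formation.

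Levels are given as the deposited log2 value of a probe set. A difference is D2 minus C on that log2 scale, given as log2 ± SE, where SE is limma's moderated standard error for 2 arrays against 2. A gene rose or fell only where its limma p, adjusted over all 15947 genes by the Benjamini-Hochberg method, was below 0.05. Where both arrays of 1 group are said to lie above or below both of the other, this adds nothing to a call. The share of all genes with such a separation was not counted. Across probe sets the 2 C arrays correlated at 0.983 and the 2 D2 arrays at 0.989, and array medians lay between 6.25 and 6.31. Bone markers were present in every array: COL1A1, the main collagen of bone, read 13.07 and 13.26 in C and 13.72 and 13.64 in D2. Skeletal muscle markers were low in both groups, with ACTA1, muscle actin, between 5.23 and 6.00, and the cartilage collagen COL2A1 lay between 6.69 and 7.08. In tissue of mixed composition, fewer cells of a type and less RNA per cell cannot be told apart.

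Transcripts of epithelium differed strongly between the arrays and stand beside every result that follows. The summed linear level of 64 airway and gland secretory genes was 3056 and 3211 in C, 29077 and 20544 in D2, 4641 and 2722 in D6, and 24617 and 21201 in DT6. For 48 motile cilium genes it was 2602 and 2572 in C, 5786 and 5082 in D2, 2301 and 2355 in D6, and 4869 and 5586 in DT6. Both lists were thus high in both arrays of D2 and of DT6. The ciliary regulator FOXJ1 read 7.15 and 7.0 in C and 7.04 and 7.18 in D2, although RSPH1, a radial spoke protein of motile cilia, rose by 1.86 ± 0.21. A list of 50 stratified oral epithelium genes followed another pattern, with sums of 2646 and 2274 in C, 2297 in D2 array 1, 9632 in D2 array 2 and 28380 in D6 array 1. For 65 genes of simple and glandular epithelium the sum was 4920 and 4847 in C and 6961 and 8338 in D2. The 4 epithelial lists held 227 measured genes, of which 79 rose and 1 fell in D2. The part of epithelial tissue in the other differences was not tested.

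**Figure D1:**
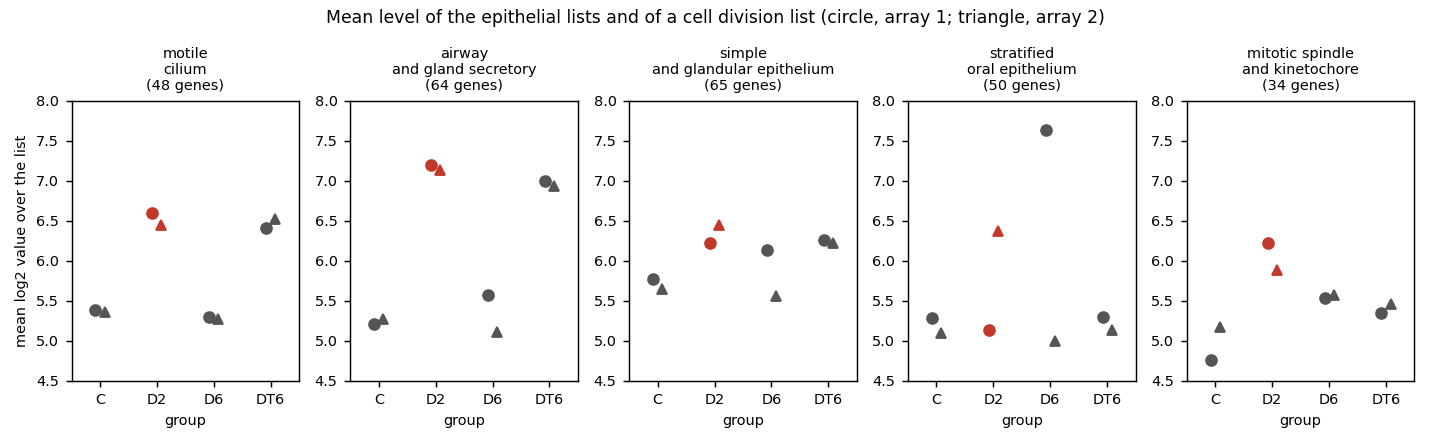
Mean log2 value of the 4 epithelial lists and of the mitotic spindle list in each of the 8 arrays, by group; circles are arrays numbered 1 and triangles arrays numbered 2, with D2 in red. The cilium and airway lists are high in both D2 and both DT6 arrays, the oral list is high in D2 array 2 and D6 array 1, and the spindle list is above both C arrays in every other array.

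In D2 against C, 902 genes rose, 5.66% of those tested, and 437 fell, 2.74%. The median difference over all genes was −0.01. Of these, 461 rose and 159 fell by at least 1 log2. Leaving out any 1 of the 4 arrays cost many of the calls: the rises numbered 263, 561, 258 and 332 when C array 1, then C array 2, then D2 array 1, then D2 array 2 was dropped, and the falls 91, 163, 52 and 109. A gene is called stable here if it passed in all 8 arrays and in each of these 4 reduced fits. There were 188 stable rises, 1.18% of genes tested, and 40 stable falls, 0.251%, and 48 of the 228 belonged to the epithelial lists. In the paragraphs on the gene lists, a gene said to rise or fall and not called stable lost its call when at least 1 of the 4 arrays was left out. Counts of a list with 1 array left out are always given in the order C array 1, C array 2, D2 array 1, D2 array 2.

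**Figure D2:**
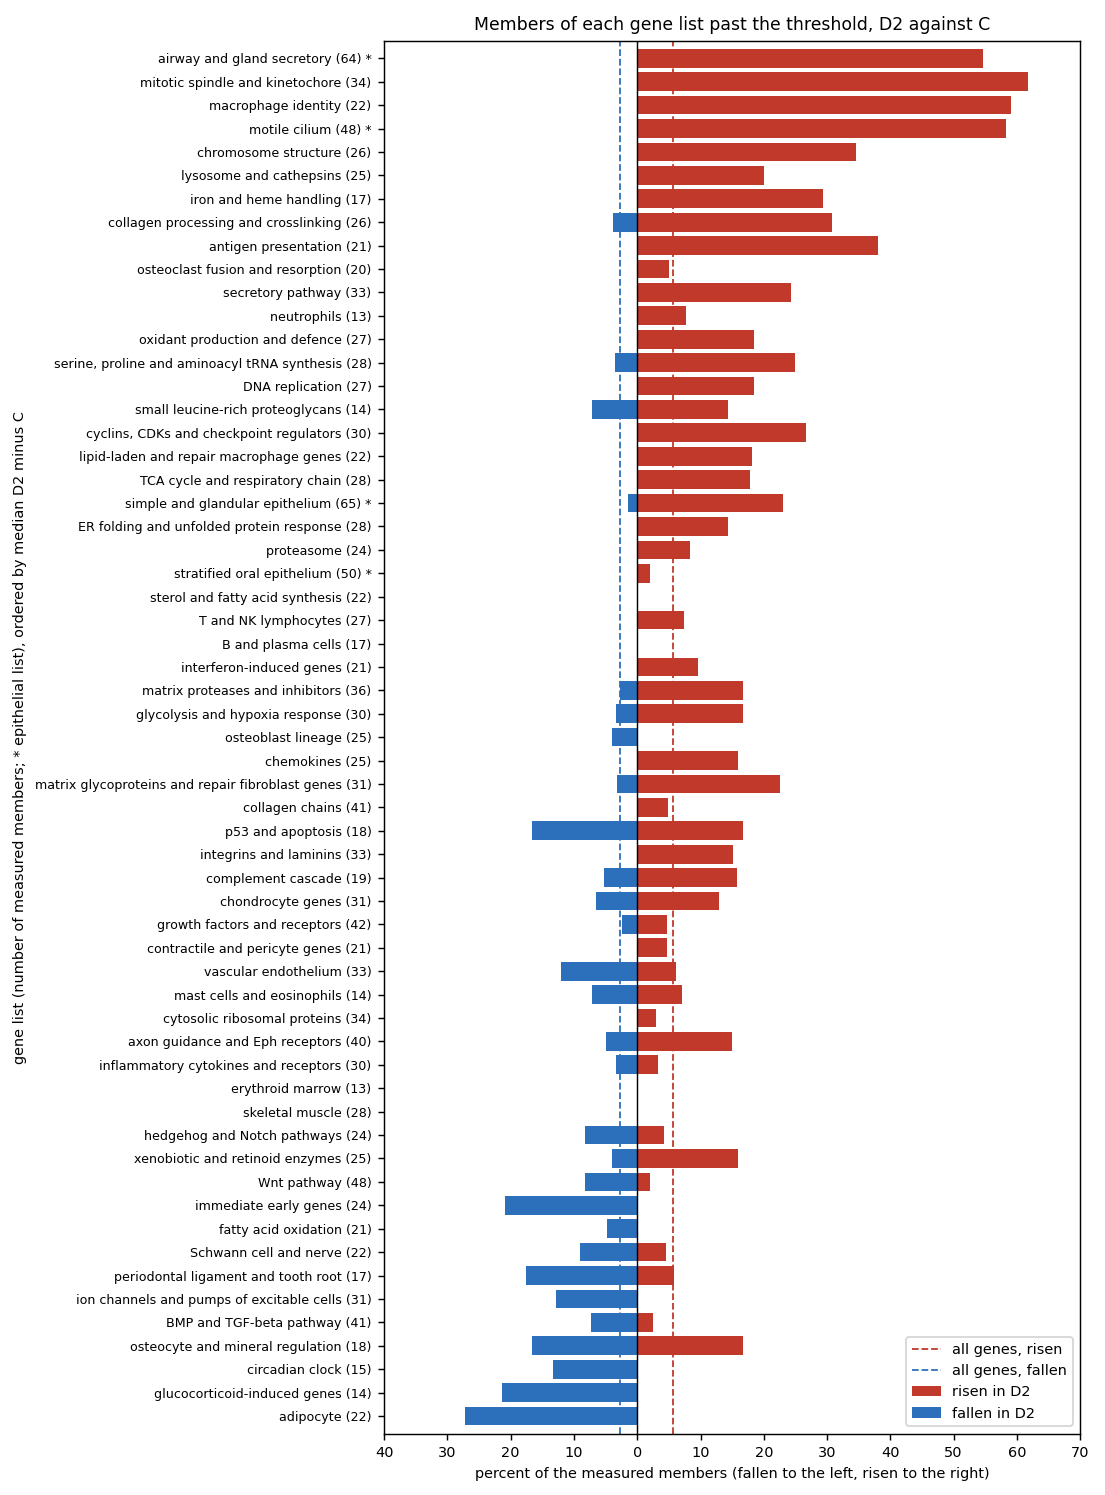
Percent of the measured members of each of 59 gene lists that rose (right, red) or fell (left, blue) in D2 against C, ordered by the list's median difference, with dashed lines at the 5.66% and 2.74% found over all genes. Cell division, macrophage, antigen presentation and collagen processing lists lie to the right, and adipocyte, glucocorticoid-induced and immediate early lists to the left.

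Genes that cells use to divide were higher in the 2-week defect. Over 4 lists with 117 measured genes, 43 rose and none fell, 10 of the rises were stable, and the median difference was 0.58. The rises numbered 17, 35, 11 and 28 with an array left out. MKI67, which coats mitotic chromosomes and marks cycling cells, read 5.96 and 6.27 in C and 8.25 and 8.0 in D2. TOP2A, the topoisomerase that untangles replicated DNA, read 4.54 and 5.52 in C and 7.67 and 7.08 in D2. Both D2 arrays stood above both C arrays for each gene, and both rises were stable.

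In the mitotic spindle list 21 of 34 members rose, the median was 1.15, and 32 of the 34 were above 0. ANLN, the actin-binding scaffold of the cleavage furrow, read 4.45 and 5.25 in C and 7.22 and 6.89 in D2, a stable rise of 2.20 ± 0.25 (adjusted p = 0.00186). KIF11, the motor that pushes spindle poles apart, read 3.92 and 4.55 in C against 6.58 and 6.18, a stable rise of 2.15 ± 0.26 (adjusted p = 0.00245). In each case both D2 arrays lay above both C arrays. TPX2, a spindle assembly factor, BUB1B, the checkpoint kinase BubR1, and KIF23, a motor of the central spindle, were stable at 1.75, 1.66 and 1.51 and were picked after their values were seen. PRC1, which bundles the microtubules of the midzone, rose by 1.92 ± 0.28 and the kinetochore protein NUF2 by 1.85 ± 0.34. The count of risen members was 11, 20, 5 and 16 with an array left out.

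Chromosome structure genes rose in 9 of 26 cases, with a median of 0.63. NCAPG, a condensin subunit, read 4.39 and 4.69 in C and 6.69 and 6.26 in D2 and was a stable rise, at 1.93 ± 0.21. ESCO2, which acetylates cohesin, rose by 1.51 ± 0.23. Cyclins, cyclin-dependent kinases and their regulators rose in 8 of 30 cases, with a lower median of 0.33. CDK1, the kinase that drives entry into mitosis, rose by 1.59 ± 0.23, its partner cyclins CCNA2 and CCNB2 by 1.27 ± 0.26 and 1.12 ± 0.22, and UBE2C, the ubiquitin-conjugating enzyme of the anaphase-promoting complex, by 1.23 ± 0.15, of which the last was stable. Dropping an array left 3, 8, 3 and 4 rises in the chromosome structure list and 1, 4, 2 and 6 in the cyclin list.

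DNA replication genes rose in 5 of 27 cases, with a median of 0.36. RRM2, the subunit of ribonucleotide reductase made in S phase, read 5.52 and 5.80 in C and 7.84 and 7.41 in D2, a stable rise of 1.96 ± 0.18 (adjusted p = 0.00061). The origin proteins ORC1, MCM2 and MCM4 rose by 0.85, 0.85 and 0.84. Without C array 1 the MCM4 difference was 0.47 and did not pass (adjusted p = 0.162), and the list counted 2, 3, 1 and 2 rises with an array left out. The stable rises outside the lists included KPNA2, a nuclear import receptor, at 1.58 ± 0.15, and ASF1B, a histone chaperone of replicating cells, at 1.56 ± 0.19, both picked after their values were seen.

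At 6 weeks the plotted genes lay between C and D2. MKI67 read 7.46 and 7.42 in D6, RRM2 7.06 and 7.0, and KIF11 5.31 and 5.58. In the separate comparison of D6 with D2, which uses the same D2 arrays, 34 genes were higher in D6 (0.213%) and 234 lower (1.47%). None of the 117 cell division genes passed there in limma, where 29 had an unadjusted p under 0.05, and their median was −0.26, with 91 below 0. The mean log2 level of the spindle list was 4.75 and 5.17 in C, 6.22 and 5.89 in D2, 5.54 and 5.57 in D6, and 5.34 and 5.46 in DT6. Both DT6 arrays thus lay below both D2 arrays. DT6 differs from D2 in week and in tooth movement, and no cause of the difference was tested.

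**Figure D3:**
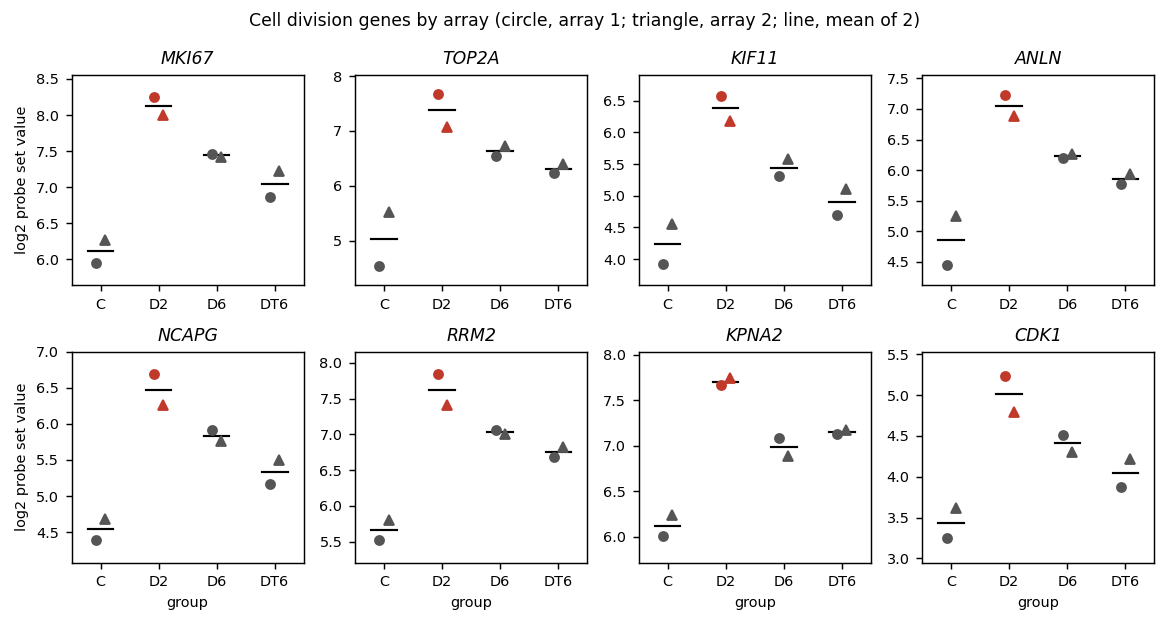
Log2 values of 8 cell division genes in each array by group (circle, array 1; triangle, array 2; bar, mean of 2 arrays; D2 in red). For each gene both D2 arrays lie above both C arrays, and the D6 and DT6 arrays lie in between.

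Macrophage genes were also higher in D2. Macrophages arise from blood monocytes, engulf debris and present antigen, and in healing bone they share the site with osteoclasts of the same lineage. Of 22 macrophage identity genes 13 rose and none fell, with a median of 1.13, and 21 of the 22 were above 0. The summed linear level of the list was 2491 and 2868 in C, 5534 and 5894 in D2, and 7184 and 6516 in D6. In DT6 it was 4775 and 9289, so arrays of 1 group differed widely and DT6 array 1 lay below both D2 arrays. The calls were fragile, with 1, 3, 2 and 3 rises when an array was left out, but the list median stayed between 1.02 and 1.21. CYBB, the catalytic subunit of the phagocyte NADPH oxidase, read 6.17 and 6.83 in C and 8.09 and 8.20 in D2. CD14, the lipopolysaccharide co-receptor, read 7.68 and 7.52 in C and 8.79 and 9.06 in D2. Groups did not overlap for either gene. VSIG4, a complement receptor of tissue macrophages, rose by 1.43 ± 0.26 and LAPTM5, a lysosomal membrane protein of blood-derived cells, by 1.37 ± 0.33. FCGR1A, the high-affinity IgG receptor CD64, read 4.92 and 5.25 in C and 6.34 and 6.31 in D2 and was the list's stable rise, at 1.25 ± 0.18, picked after its value was seen.

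Genes of lipid-laden and repair macrophages rose in 4 of 22 cases, 2 of them stable. GPNMB, a membrane glycoprotein of phagocytes and osteoclasts, read 7.65 and 8.04 in C and 10.65 and 10.73 in D2, which is 7.17-fold. The groups were far apart, and the gene was a stable rise of 2.84 ± 0.18 (adjusted p = 0.000138). It remained at 10.27 and 10.04 in D6 and 9.41 and 9.72 in DT6. CHI3L1, a secreted chitinase-like lectin of macrophages and connective tissue cells, read 6.62 and 6.35 in C against 8.02 and 8.98, a stable rise of 2.02 ± 0.31. MSR1, a scavenger receptor, rose by 1.00 ± 0.18 and NPC2, which carries cholesterol out of lysosomes, by 0.95 ± 0.25. The count was 2, 2, 2 and 3 with an array left out.

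Lysosomal genes rose in 5 of 25 cases, with a median of 0.62 and 23 members above 0. These were the proteases CTSA, CTSD, CTSS, CTSB and, picked after its value was seen, CTSH, by 0.93 to 1.28. CTSD, the aspartic protease cathepsin D, read 8.48 and 8.50 in C and 9.52 and 9.72 in D2. The 5 calls fell to 0, 1, 1 and 0 with an array left out. Of 17 iron and heme genes 5 rose, 3 of them stable. SLC11A1, the phagosomal metal transporter NRAMP1, read 5.73 and 5.82 in C and 7.02 and 7.22 in D2, a stable rise of 1.35 ± 0.16, and was back at 6.02 and 6.32 in D6. BLVRB, biliverdin reductase B, was stable at 0.99 ± 0.14 and CP, the ferroxidase ceruloplasmin, rose by 1.06 ± 0.27. LTF, lactoferrin, which glands and neutrophils both make, was stable at 4.31 ± 0.38 and is also counted in the airway and gland list.

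Antigen presentation genes rose in 8 of 21 cases and none fell, with a median of 0.49. They were mainly of class II, the complexes with which macrophages, dendritic cells and B cells show peptides to CD4 T cells. DLA-DQA1, a dog class II chain, read 7.80 and 8.33 in C and 10.44 and 10.38 in D2, 5.08-fold. CD74, the invariant chain that escorts class II molecules, read 8.91 and 9.12 in C and 10.77 and 10.70 in D2, a stable rise of 1.72 ± 0.20 (adjusted p = 0.00203). The peptide loader DLA-DMB was a stable rise at 1.50 ± 0.20 and DLA-DRA rose by 1.69 ± 0.30. Both D2 arrays stood above both C arrays for these genes, and D6 stayed near D2, with CD74 at 10.62 and 10.58. The list counted 2, 4, 3 and 4 rises with an array left out.

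Lymphocyte genes showed little beyond CD2 and CD4. Of 27 T and NK cell genes these 2 rose, near the share over all genes, with a list median of 0.23. CD4, the co-receptor of helper T cells, which dog neutrophils also carry, read 5.18 and 5.40 in C and 6.59 and 7.15 in D2, a stable rise of 1.58 ± 0.21. CD2, an adhesion receptor of T cells, rose by 1.75 ± 0.28. None of 17 B and plasma cell genes passed in limma, where 5 had an unadjusted p under 0.05. JCHAIN, the joining chain of secreted immunoglobulin, differed by 1.93 ± 0.52 (adjusted p = 0.0558) and PRDM1, a regulator of plasma cells, by 0.84 ± 0.23 (adjusted p = 0.0597). Among 13 neutrophil genes OLFM4, which glands also make, was the 1 that rose, by 2.12 ± 0.34, or 7.69% against 5.66% over all genes. Of 14 mast cell and eosinophil genes FCER1A, a chain of the IgE receptor, rose by 0.71 ± 0.17 and KIT, the stem cell factor receptor, fell by 0.58 ± 0.14. Each was 7.14% of that list, against 5.66% risen and 2.74% fallen over all genes. S100A8, calprotectin, read 3.50 and 3.94 in C, 6.08 and 8.91 in D2, and did not pass. Its 2 high readings were in D2 array 2 and, at 10.13, in D6 array 1, the arrays with the high oral epithelium sums.

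Complement and chemokine genes were mixed. C3AR1, the receptor for the C3a fragment, read 6.17 and 6.25 in C and 7.65 and 7.55 in D2, a stable rise of 1.39 ± 0.17 (adjusted p = 0.00289). C1QC and CD59 rose by 0.86 and 0.69, while C7, a component of the membrane attack complex, fell by 1.94 ± 0.41, so that 3 of 19 complement genes rose and 1 fell. CD59 read 7.39 and 7.41 in D6 and 8.04 and 8.17 in DT6, the group order of the airway and cilium sums. Of 25 chemokines 4 rose and none was stable: the monocyte attractant CCL2 by 1.60 ± 0.31, the neutrophil attractant CXCL8 by 1.53 ± 0.40, CXCL10 by 1.48 ± 0.33 and the B cell attractant CXCL13 by 1.00 ± 0.25. CXCL8 read 6.74 and 8.19 in D2, and without D2 array 2 its difference was 0.81 (adjusted p = 0.196). With an array left out the rises numbered 2, 1, 1 and 2 for complement and 0, 1, 1 and 0 for chemokines. CX3CR1, the fractalkine receptor of monocytes, was a stable rise outside the lists at 1.58 ± 0.18, picked after its value was seen.

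**Figure D4:**
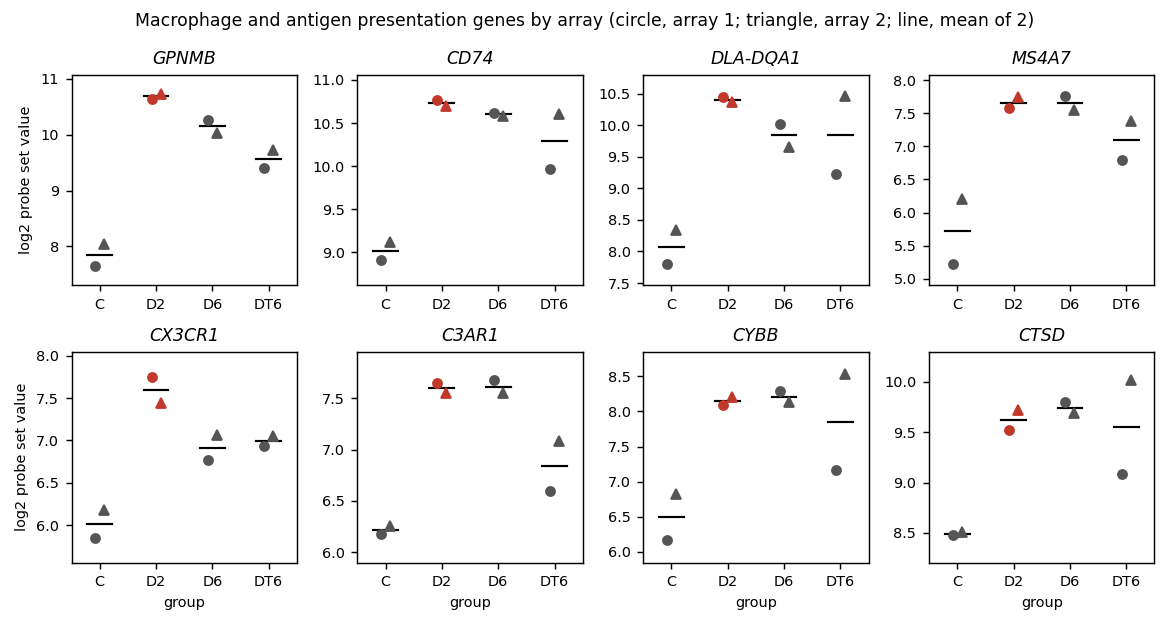
Log2 values of 8 macrophage, lysosome and antigen presentation genes in each array by group (circle, array 1; triangle, array 2; bar, mean of 2 arrays; D2 in red). For each gene both D2 arrays lie above both C arrays, and the D6 arrays remain above C.

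Inflammatory cytokine genes were near the all-gene pattern at this time. Of 30 cytokines and receptors 1 rose and 1 fell, with a median of −0.09. IL18, an inflammasome product, rose by 1.74 ± 0.35, and IL15, a lymphocyte growth factor, fell by 0.93 ± 0.15. The call of IL18 was lost with any of the 4 arrays left out, and that of IL15 was kept only without C array 1 (adjusted p = 0.0502 without C array 2). IL1B, at 0.11 ± 0.23, and IL6, at 0.08 ± 0.31, had differences smaller than their SE. Interferon-induced genes rose in 2 of 21 cases, GBP1 by 1.61 ± 0.27 and the antiviral GTPase MX2 by 1.33 ± 0.27, with a median of 0.20. That was 9.52%, against 5.66% over all genes. Without D2 array 1 the list counted 4 rises, and 0 without each of the other arrays. The mean log2 level of the list was 6.21 and 6.28 in C, 6.27 and 6.81 in D2, and 7.83 and 7.62 in D6. In DT6, also at 6 weeks, the list read 6.15 and 6.31, near C. In D6 against D2, 13 of its members were higher in D6.

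Of the osteoclast genes 1 rose at 2 weeks, 5% and so near the 5.66% over all genes. TCIRG1, a subunit of the proton pump that acidifies the resorption pit, rose by 0.72 ± 0.17, alone among 20 members with a median of 0.47. ACP5, tartrate-resistant acid phosphatase, read 8.89 and 9.48 in C, 9.91 and 10.59 in D2, and 11.50 and 11.01 in D6. The difference of 1.07 ± 0.33 did not pass (adjusted p = 0.086). CTSK, the collagenase cathepsin K, differed by 0.51 ± 0.26, TNFSF11, the osteoclast differentiation factor RANKL, by −0.01 ± 0.37, and its decoy receptor TNFRSF11B, osteoprotegerin, by −0.89 ± 0.24 (adjusted p = 0.0518). The call of TCIRG1 was lost whichever of the 4 arrays was left out.

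Among matrix genes, 8 of 26 collagen processing genes and 2 of 41 collagen chains rose. The shares were 30.8% and 4.88%, the latter near the 5.66% over all genes. The chains were COL12A1 by 0.85 ± 0.21 and COL15A1 by 0.65 ± 0.14, and the median over chains was 0.08. COL3A1, the collagen of early granulation tissue, read 11.89 and 11.69 in C and 12.32 and 12.34 in D2, a difference of 0.54 ± 0.27 that did not pass, and POSTN, periostin, differed by −0.50 ± 0.32. The processing genes, which fold, trim and crosslink collagen, had a median of 0.54. FKBP10, the collagen chaperone FKBP65, read 8.57 and 9.0 in C and 10.37 and 10.14 in D2, a rise of 1.47 ± 0.22 (adjusted p = 0.00676). PCOLCE, which speeds removal of the C-propeptide, rose by 1.13 ± 0.25, the lysyl hydroxylase PLOD1 by 1.08 ± 0.18 and the prolyl 3-hydroxylase P3H1 by 1.07 ± 0.22. The related P3H2 fell by 0.84 ± 0.15. None of these was stable, and the risen members numbered 0, 6, 0 and 3 with an array left out.

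Genes of the general secretory route were also higher. In the secretory pathway list 8 of 33 members rose, none fell, 31 were above 0, and the median was 0.46. SEC61A1, the channel through which new proteins enter the endoplasmic reticulum, read 10.20 and 10.23 in C and 11.32 and 11.13 in D2. TMED3, a cargo receptor, rose by 0.96 ± 0.24, the COPII coat protein SEC23A by 0.92 ± 0.21 and the translocon protein SSR1 by 0.78 ± 0.18. Endoplasmic reticulum folding genes rose in 4 of 28 cases, with HYOU1, an ER chaperone, at 0.97 ± 0.16 and P4HB, the disulfide isomerase that is also a subunit of prolyl 4-hydroxylase, at 0.80 ± 0.18. The secretory list counted 1, 8, 0 and 2 rises and the folding list 0, 3, 0 and 0 with an array left out. YKT6, a SNARE of the secretory route, was a stable rise at 1.13 ± 0.16 and was picked after its value was seen.

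In a list of amino acid synthesis and tRNA charging genes, 7 of 28 rose and 1 fell, with a median of 0.36. ALDH18A1, the first enzyme of proline synthesis from glutamate, read 7.19 and 7.54 in C and 8.50 and 8.25 in D2. SHMT2, which makes glycine from serine in mitochondria, rose by 1.01 ± 0.16, the serine synthesis enzyme PSAT1 by 0.88 ± 0.18, and ASS1, of arginine synthesis, by 0.88 ± 0.17. ASS1 read 6.05 and 5.87 in D6 and 6.52 and 6.90 in DT6, the group order of the airway and cilium sums. MTHFD1L, of mitochondrial folate metabolism, fell by 0.56 ± 0.14. With an array left out the list counted 0, 3, 1 and 1 rises, and the fall was lost in each reduced fit.

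Matrix glycoproteins and fibroblast genes rose in 7 of 31 cases and fell in 1. CTHRC1, a secreted protein of activated fibroblasts, read 8.04 and 9.34 in C and 10.42 and 10.33 in D2. Without the lower C array, array 1, its difference went from 1.68 to 1.03. MFAP4, a microfibril protein of elastic fibres, read 5.73 in both C arrays and 6.69 and 6.81 in D2, a stable rise of 1.02 ± 0.15, and was back at 5.80 and 5.75 in D6. TNC, tenascin C of provisional matrix, rose by 0.91 ± 0.24, while THBS4, a thrombospondin of tendon and ligament, fell by 1.50 ± 0.27. The list counted 2, 4, 1 and 1 rises with an array left out. MXRA5, a matrix remodelling protein, and SMOC2, a calcium-binding matrix protein, were stable rises of 1.44 ± 0.14 and 1.03 ± 0.14 and were picked after their values were seen.

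Of 14 small leucine-rich proteoglycans, which coat and space collagen fibrils, 2 rose and 1 fell. PRELP read 8.66 and 8.28 in C and 9.99 and 9.70 in D2, a stable rise of 1.37 ± 0.18 (adjusted p = 0.00351). BGN, biglycan, rose by 1.12 ± 0.22 and KERA, keratocan, fell by 0.89 ± 0.22. Matrix proteases and inhibitors rose in 6 of 36 cases and fell in 1. ADAM12, a membrane metalloprotease of fusing and repairing cells, read 7.28 and 7.70 in C and 9.29 and 9.0 in D2. ADAMTS12 rose by 1.30 ± 0.20 and the collagenase MMP13 by 1.21 ± 0.26, and TIMP3, a matrix-bound inhibitor of such proteases, fell by 1.32 ± 0.28. MMP12, the macrophage elastase, read 5.46 in D2 array 1 and 8.65 in D2 array 2, and without the latter its difference went from 3.31 to 1.72 (adjusted p = 0.0845). No member of the protease list was stable, and its rises numbered 1, 2, 1 and 2 with an array left out. For the proteoglycan list they numbered 1, 3, 1 and 1.

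Integrins, the receptors that anchor cells to matrix, and laminins rose in 5 of 33 cases. ITGA8, an integrin chain of mesenchymal cells, read 6.79 and 7.27 in C and 8.41 and 9.03 in D2, a stable rise of 1.70 ± 0.24. The collagen receptor chain ITGA11 rose by 1.26 ± 0.25 and the leukocyte chain ITGAL by 0.99 ± 0.23. ITGB6, an epithelial integrin chain, read 5.90 and 7.61 in D2, and without D2 array 2 its difference went from 2.00 to 1.15 (adjusted p = 0.196). With an array left out the list counted 1, 2, 2 and 1 rises. Of 21 contractile and pericyte genes 1 rose, 4.76% and so near the 5.66% over all genes. It was the pericyte marker RGS5, by 0.76 ± 0.16, and the list median was 0.00. That call was lost in each reduced fit.

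Few genes of bone-forming cells passed. In the osteoblast list none of 25 genes rose and 1 fell, 4% against 2.74% over all genes. It was SLC20A2, a phosphate transporter, by 1.00 ± 0.19. The transcription factor RUNX2 read 10.73 and 10.82 in C and 10.47 and 10.22 in D2, and SP7, osterix, 7.51 and 7.79 against 8.49 and 8.08. Neither gene passed. ALPL, alkaline phosphatase, differed by 0.83 ± 0.33, IBSP, bone sialoprotein, by 1.09 ± 0.41, BGLAP, osteocalcin, by 0.24 ± 0.30 and SPP1, osteopontin, by 0.08 ± 0.29. The list median was 0.17. The call of SLC20A2 was lost whichever of the 4 arrays was left out.

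Of the osteocyte genes, MEPE and SOST fell. MEPE, a matrix phosphoglycoprotein of osteocytes, read 11.17 and 10.85 in C and 8.57 and 8.88 in D2, so C was 4.87-fold higher. SOST, which encodes the Wnt inhibitor sclerostin, read 8.33 and 7.96 in C and 6.83 and 6.80 in D2. Both falls were stable, at −2.29 ± 0.21 (adjusted p = 0.000601) and −1.33 ± 0.18 (adjusted p = 0.00356). For both genes D6 lay between, with MEPE at 9.67 and 9.13. Neither passed in D6 against D2 in limma (adjusted p = 0.275 for MEPE and 0.283 for SOST). MLIP, a lamin-interacting protein known from muscle that the list also held, fell by 1.66 ± 0.26. DMP1, another osteocyte phosphoprotein, read 9.63 and 11.62 in C and 6.40 and 6.89 in D2, but D6 read 6.82 and 11.84 and DT6 12.25 and 6.23, and the difference of −3.98 ± 1.93 did not pass (adjusted p = 0.253). PDPN, podoplanin, an early osteocyte protein that fibroblasts and lymphatic cells also make, was a stable rise of 1.36 ± 0.17, and CAPG, an actin-capping protein, rose by 1.02 ± 0.20. In all, 3 of 18 osteocyte and mineral genes rose and 3 fell, with 1, 4, 2 and 1 rises and 3, 4, 2 and 3 falls when an array was left out.

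Cartilage genes moved in both directions. ACAN, the core protein of aggrecan, read 6.29 and 6.93 in C and 9.68 and 8.91 in D2, 6.42-fold, and rose by 2.68 ± 0.40 (adjusted p = 0.00571). HAPLN1, which links aggrecan to hyaluronan, rose by 1.60 ± 0.38, SCIN, the actin-severing protein scinderin, by 1.99 ± 0.33, and XYLT1, which starts chondroitin sulfate chains, by 0.57 ± 0.14. MATN3, matrilin 3, read 10.12 and 10.08 in C and 4.96 and 5.40 in D2, so that C was 30.3-fold higher, and was a stable fall of −4.92 ± 0.46 (adjusted p = 0.000678). MIA, a secreted cartilage protein, fell by 0.82 ± 0.17. The defining chondrocyte genes SOX9 and COL2A1 differed by 0.12 ± 0.15 and −0.22 ± 0.26. Over the list 4 of 31 rose and 2 fell, with a median of 0.02 and with 0, 1, 1 and 2 rises and 1 fall each when an array was left out.

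Among tooth genes AMELX fell and KLK4 rose. AMELX, amelogenin of enamel, read 9.52 and 7.91 in C and 5.57 and 6.04 in D2, a stable fall of −2.91 ± 0.43 (adjusted p = 0.00594), and stayed between 5.64 and 6.07 in D6 and DT6. KLK4, the protease that clears enamel matrix, went the other way, from 6.56 and 6.73 to 8.37 and 7.91, a stable rise of 1.50 ± 0.20. Both groups were apart for each gene. With THBS4 and EGR1 also lower, 1 of 17 periodontal ligament and tooth root genes rose and 3 fell, with 2, 1, 1 and 1 falls when an array was left out. The 5.88% risen was near the 5.66% over all genes, and the 17.6% fallen was above the 2.74%.

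Wnt signals drive osteoblast formation, and secreted antagonists hold them in check. Of 48 Wnt genes 1 rose and 4 fell, with a median of −0.16. The 2.08% risen was below the 5.66% over all genes, and the 8.33% fallen was above the 2.74%. RSPO3, which strengthens Wnt signals, fell by 1.59 ± 0.31, the antagonist FRZB by 1.49 ± 0.24 and the antagonist DKK2 by 1.23 ± 0.30, beside SOST. TNFRSF19, a Wnt target in mesenchymal cells, rose by 1.19 ± 0.21. Of 41 BMP and TGF-beta genes 1 rose and 3 fell, 2.44% and 7.32%. ACVR1C, the activin receptor ALK7 that fat cells express, read 5.95 and 6.68 in C and 4.02 and 4.29 in D2, a fall of −2.16 ± 0.35. BMP3, made by osteocytes, fell by 1.42 ± 0.25 and BMP6 by 0.96 ± 0.16, and TGFBI, a matrix protein induced by TGF-beta, rose by 0.89 ± 0.22. Apart from SOST none of these was stable, and the falls numbered 1, 2, 1 and 2 for Wnt and 2, 1, 0 and 1 for BMP with an array left out.

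Hedgehog and Notch genes rose in 1 and fell in 2 of 24 cases. The 4.17% risen was below the 5.66% over all genes, and the 8.33% fallen was above the 2.74%. PTCH1, the hedgehog receptor and target, fell by 0.59 ± 0.15, LFNG, a modifier of Notch, by 0.78 ± 0.14, and the Notch target HEY1 rose by 0.71 ± 0.18. Among 42 growth factors and receptors FGF2 read 8.11 and 7.86 in C and 6.58 and 7.0 in D2 and fell by 1.20 ± 0.19, while IGF1, at 7.37 and 7.26 against 8.19 and 8.08, rose by 0.81 ± 0.13 and MDK, midkine, by 0.87 ± 0.17. VEGFA differed by −0.43 ± 0.12 (adjusted p = 0.0611). At 4.76% risen and 2.38% fallen, the growth factor list was near the shares over all genes. None of these was stable. These 2 lists counted 0, 1, 0, 0 and 1, 1, 2, 0 rises, and 1, 0, 0, 0 and 1, 1, 0, 1 falls, with an array left out.

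Of 33 endothelial genes 4 fell, 12.1%, and 2 rose, 6.06% and so near the share over all genes, with a median of −0.03. FLT1, a VEGF receptor, read 10.15 and 10.34 in C and 8.95 and 9.12 in D2, and fell by 1.21 ± 0.19. EMCN, endomucin of capillaries and veins, fell by 0.97 ± 0.19, the angiopoietin receptor TEK by 0.79 ± 0.18 and EGFL7 by 0.58 ± 0.15. PLVAP, which forms the diaphragms of fenestrated vessels, rose by 0.82 ± 0.13 and VEGFD, a growth factor of lymphatics, by 1.33 ± 0.34. The falls numbered 1, 2, 0 and 1, and the rises 1, 1, 0 and 0, with an array left out.

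Calls among nerve-associated genes differed by list. In the Schwann cell list CDH19, a cadherin of Schwann cell precursors, fell by 1.56 ± 0.29 and PMP22, a myelin protein, by 0.93 ± 0.24, while UCHL1, a neuronal ubiquitin hydrolase, rose by 1.22 ± 0.20, out of 22 measured. The 4.55% risen was below the 5.66% over all genes, and the 9.09% fallen was above the 2.74%. Of these 22 genes 17 lay below 0. Of 40 axon guidance genes 6 rose and 2 fell. PLXNC1, the receptor of semaphorin 7A, which leukocytes also carry, was a stable rise of 1.31 ± 0.16 (adjusted p = 0.0028), with 6.36 and 6.51 in C and 7.87 and 7.63 in D2. SEMA3A, a secreted guidance cue that bone cells also make, rose by 1.12 ± 0.24, and SLIT2, a repulsive cue, fell by 0.98 ± 0.18. Ion channel genes of excitable cells rose in none and fell in 4 of 31 cases. CACNB2, a calcium channel subunit, read 10.09 and 10.45 in C and 8.88 and 8.90 in D2, a stable fall of −1.38 ± 0.18, and the potassium channels KCNA2, KCNJ3 and KCNA1 fell by 1.81, 1.40 and 1.35. With an array left out the guidance list counted 1, 4, 1 and 1 rises, and the channel list 3, 1, 1 and 2 falls.

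Fat cell genes were lower. Of 22 adipocyte genes 6 fell, none rose, 2 were above 0, and the median was −0.74. PLIN1, which coats the lipid droplet, read 8.64 and 8.80 in C and 7.18 and 7.33 in D2. LEP, leptin, read 7.16 and 6.94 in C and 5.78 and 5.62 in D2 and fell by 1.35 ± 0.22. Groups were apart for both. PLIN4 fell by 1.66 ± 0.30 and the hormone-sensitive lipase LIPE by 0.94 ± 0.19, while ADIPOQ, adiponectin, differed by −1.39 ± 0.74 and did not pass. ADIPOQ read 10.51 and 10.91 in C and 9.23 and 9.40 in D2. It read 9.44 and 6.74 in D6, a spread that enters its SE. The falls numbered 0, 4, 0 and 1 with an array left out, and the list median stayed between −0.75 and −0.63. The summed linear level was 10387 and 10912 in C, 7914 and 7536 in D2, and 7197 and 4017 in D6. In DT6 it was 8244 and 15826, so arrays of 1 group differed widely and DT6 array 2 lay above both C arrays. Of 21 fatty acid oxidation genes 1 fell, ACADL, by 0.74 ± 0.17, or 4.76% against 2.74% over all genes. Of 22 sterol and fatty acid synthesis genes none passed in limma, where 4 had an unadjusted p under 0.05. SCD differed by 0.81 ± 0.46 and ELOVL6 by 0.75 ± 0.26.

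Several genes of central carbon metabolism rose. Respiratory and TCA cycle genes rose in 5 of 28 cases, with a median of 0.30 and 24 above 0. IDH2, mitochondrial isocitrate dehydrogenase, rose by 1.04 ± 0.19, UQCRFS1, the iron-sulfur protein of complex III, by 0.89 ± 0.17, and OGDH by 0.69 ± 0.12. Glycolytic genes rose in 5 of 30 cases and fell in 1: PGAM1, ENO1, PKM and TPI1 rose by 0.65 to 0.81, while ENO2, the enolase of neurons, fell by 1.05 ± 0.20. ENO1 read 8.50 and 8.48 in C and 9.16 and 9.26 in D2. None was stable, and the rises numbered 0, 4, 0 and 0 for respiration and 0, 3, 0 and 0 for glycolysis with an array left out. Genes of oxidant production and defence rose in 5 of 27 cases, among them GPX1, glutathione peroxidase, by 1.05 ± 0.15, NCF4, of the phagocyte oxidase, by 1.09 ± 0.20, and the epithelial GPX2, also in the airway list, by 3.47 ± 0.50. That list counted 2, 3, 2 and 1 rises with an array left out.

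Some genes that respond to hormones, time of day and acute stimulation fell. NR1D1, the clock repressor REV-ERB alpha, read 8.68 and 8.09 in C, 6.74 and 6.82 in D2, 6.51 and 6.72 in D6, and 6.79 and 6.98 in DT6, a stable fall in D2 of −1.60 ± 0.20 (adjusted p = 0.00273). NR1D2 fell by 1.24 ± 0.20, and with these 2 of 15 clock genes the list median was −0.33. The labels used here give no time of sampling, so the part of time of day was not tested. Of 14 glucocorticoid-induced genes 3 fell, with a median of −0.68. FKBP5, a co-chaperone of the glucocorticoid receptor, read 9.41 and 9.98 in C, 8.59 and 8.45 in D2, and 9.67 and 10.10 in D6. In DT6 it read 8.18 and 8.54, near D2. TSC22D3, the glucocorticoid-induced leucine zipper, fell by 1.12 ± 0.17 and the kinase SGK1 by 0.86 ± 0.17. Of 24 immediate early genes 5 fell, among them NR4A1 by 0.90 ± 0.21, KLF4 by 0.87 ± 0.16 and JUND by 0.67 ± 0.16. EGR1 fell by 0.97 ± 0.20, and its difference was −0.65 without C array 2 (adjusted p = 0.0636). With an array left out the falls numbered 1, 3, 1 and 1 for the clock, 1, 4, 0 and 1 for the glucocorticoid list and 1, 2, 0 and 0 for the immediate early genes.

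Survival genes passed in both directions. BCL2, which blocks apoptosis, read 8.19 and 8.21 in C and 7.17 and 7.30 in D2, a stable fall of −0.96 ± 0.13 (adjusted p = 0.0035). BCL2L1 fell by 0.72 ± 0.15, while BIRC5, survivin, which also acts in mitosis, rose by 0.78 ± 0.16, giving 3 rises and 3 falls among 18 p53 and apoptosis genes, 16.7% each, or 0, 1, 0 and 0 rises and 1, 2, 1 and 1 falls with an array left out. Of 34 ribosomal proteins RPSA was the 1 that rose, by 0.71 ± 0.13, and of 24 proteasome genes PSMB3 and PSMC4 rose by 0.59 each. These were 2.94% and 8.33% of their lists, against 5.66% over all genes. Of 25 xenobiotic and retinoid enzymes 4 rose: ALDH1A1 and CYP3A12, stable at 3.94 ± 0.29 and 2.73 ± 0.26, ALDH1A2, which makes retinoic acid, by 1.52 ± 0.34, and CRABP2, which carries it, by 1.16 ± 0.26. ALDH1A1 is also in the airway list and read 4.95 and 4.69 in D6 against 8.82 and 9.55 in DT6. CYP1B1 fell by 0.73 ± 0.16. No gene of the skeletal muscle list (28 measured) or the erythroid list (13 measured) passed in limma, where 3 and 3 had an unadjusted p under 0.05.

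Outside the epithelial lists, the 15 largest stable rises ran from 2.84 to 4.36 log2. FAM216B read 4.39 and 4.36 in C, 8.97 and 8.49 in D2, 4.92 and 4.78 in D6, and 7.72 and 8.63 in DT6. CFAP47, named as a protein of cilia and flagella, read 4.23 and 3.71 in C, 7.94 and 7.48 in D2, 3.94 and 3.59 in D6, and 7.39 and 7.84 in DT6. The order of the groups is that of the airway and cilium sums, high in D2 and DT6 and low in C and D6. LRRIQ1, ZBBX, IQCA1, AK7, RIBC2, APOBEC4, KCNRG, SLC44A4, a choline transporter, SLC27A2, a fatty acid transporter, KMO, of kynurenine metabolism, AOX2 and CYP2B6 also read lower in both D6 arrays than in both DT6 arrays. GPNMB did not follow that order: both its D6 arrays were above both its DT6 arrays.

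Further stable rises outside every list, chosen after their values were seen, included 2 homeobox genes. ALX1, a transcription factor of craniofacial mesenchyme, read 6.35 and 7.53 in C and 9.12 and 9.09 in D2, a rise of 2.17 ± 0.33 (adjusted p = 0.0068), and stayed between 8.28 and 8.84 in D6 and DT6. MEIS1, a cofactor of HOX proteins, read 5.79 and 6.37 in C and 8.28 in both D2 arrays, a rise of 2.20 ± 0.29. Both were above C in every other array. The myeloid genes MS4A7, LYN, a Src family kinase, FERMT3, the integrin activator kindlin 3, TBXAS1, thromboxane synthase, and MYO1F rose by 1.94, 1.34, 1.31, 1.23 and 1.09.

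The 15 largest stable falls ran from −1.62 to −4.92 and began with MATN3 and AMELX. NPFFR2, a neuropeptide receptor, read 7.03 and 7.71 in C, 4.57 and 4.65 in D2, and 6.31 and 6.96 in D6. It was higher in D6 than in D2 by 2.02, also past the threshold. GRB14, an adaptor that restrains the insulin receptor, read 7.32 and 7.06 in C and 5.09 and 5.11 in D2, and stayed between 5.29 and 5.68 in D6 and DT6. NPPC, C-type natriuretic peptide, a growth signal of cartilage, read 8.48 and 8.98 in C and 6.63 and 6.76 in D2, so C was 4.08-fold higher. Every D2 array lay below both C arrays for these genes. ASPA, which splits N-acetylaspartate and is found in fat as well as brain, fell by 2.17 ± 0.24 and RGS6, which ends G protein signals, by 1.76 ± 0.17. CDH10 and CNTNAP5, adhesion proteins known from neurons, fell by 2.18 ± 0.21 and 1.67 ± 0.18. SNTB1, a syntrophin of the dystrophin complex, fell by 1.62 ± 0.20, CCDC3, a secreted protein of fat and endothelium, by 1.71 ± 0.19 and PLSCR4, a phospholipid scramblase, by 1.70 ± 0.22. MGAT4C and LUZP2 fell by 1.89 and 1.74.

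**Figure D5:**
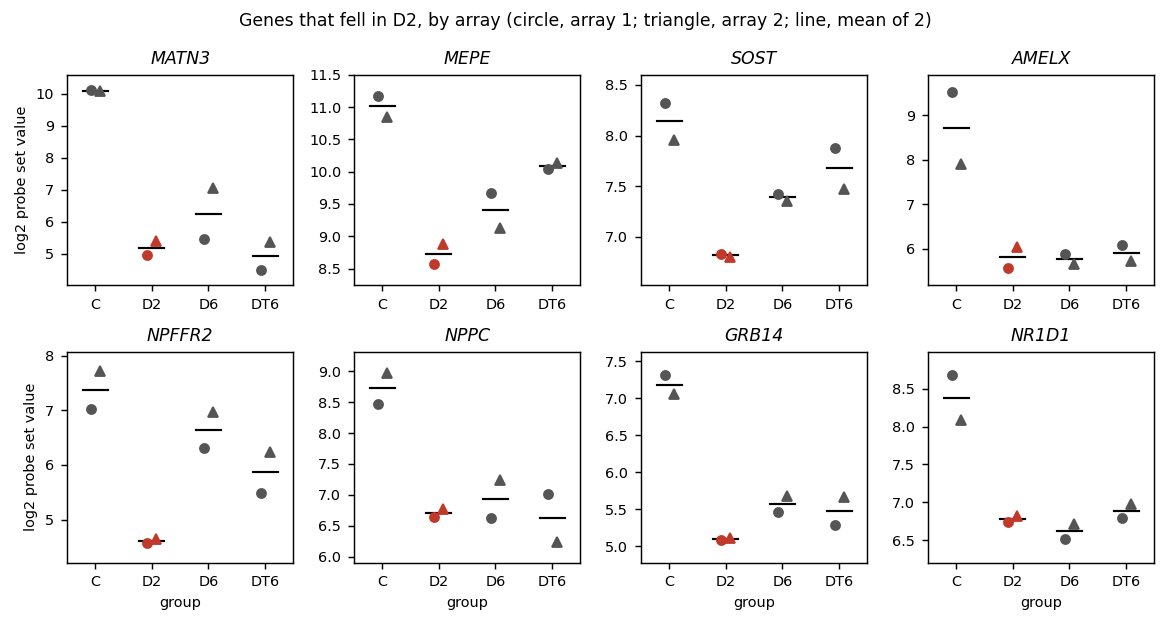
Log2 values of 8 genes that fell in D2, in each array by group (circle, array 1; triangle, array 2; bar, mean of 2 arrays; D2 in red). Both D2 arrays lie below both C arrays for each gene. For NPFFR2, MEPE, SOST, MATN3 and GRB14 both D6 arrays lie between those of D2 and C. Of these genes NPFFR2 alone passed in D6 against D2.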

How the data were processed

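Total RNA of dog alveolar bone was hybridised to Affymetrix whole-transcript arrays, per the labels' protocols. The deposited values, with 22708 probe sets an array, were taken as log2 and already normalized between arrays, because none lay below 0 and array medians were close. How the authors summarised, background-corrected and normalized them was not given in the sources used here, nor was the log base. Arrays have no read depth. Their number, 2 a group, limits the precision, and no detection call was used.

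In the platform annotation 16545 probe sets had 1 gene symbol, 370 several and 5793 none. The first kind was used, keeping the highest mean for 516 genes with several probe sets, which left 15947 genes. The 4 group means of all 8 arrays were fitted in limma 3.58.1 (R 4.3.3, lmFit, eBayes with trend, 4 residual degrees of freedom, two-sided). The fit was also run on simulated data with independent noise for each gene and array. Those data held no differences in tissue content between arrays, so they do not check the calls against such differences. D2 was compared with C, and D6 with D2 for the genes named. Alternatives were the 4 arrays alone, a replicate block, other variance settings, other normalizations, a filter on dim genes and leaving out arrays.

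The comparison, the 59 gene lists and the rule for named genes were chosen with earlier results of these data known. The rule took the 15 largest stable rises and falls outside the epithelial lists, up to 4 risen and 4 fallen members of each list (2 where none passed), up to 3 of each epithelial list and a key list of bone genes; cell type markers were checked apart, and genes marked as such were picked after their values were seen. Promoter sequences and motif counts were not used here.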

Additional observations from a re-analysis of the deposited data

Results flagged for a closer look

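The genes named in the report whose difference between D6 and D2 also passed the threshold in limma are given here as D6 minus D2 on the log2 scale, since they mark a different level at 6 weeks than at 2 weeks. The comparison shares the D2 arrays with D2 against C, so a chance high or low reading in D2 enters both, and no cause was tested. Among the largest stable rises, the D6 level was lower by −3.88 for FAM216B, −4.20 for LRRIQ1, −3.95 for CFAP47, −3.60 for SLC44A4, −3.26 for ZBBX, −2.55 for APOBEC4 and −2.44 for KMO. It was lower by −3.36 for AOX2, −2.37 for CYP2B6, −2.80 for IQCA1, −3.07 for SLC27A2, −2.88 for AK7, −2.12 for KCNRG and −3.16 for RIBC2.

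Among members of the epithelial lists the differences were −1.70 for RSPH1, −3.61 for CFAP126, −3.20 for DNAH11, −2.49 for HYDIN, −6.48 for BPIFA1, −4.78 for TSPAN1, −5.44 for AGR2, −3.15 for KRT19 and 1.09 for PKHD1L1. LTF, GPX2, OLFM4 and ALDH1A1, also made by glands and airway, differed by −4.30, −2.89, −2.16 and −3.69, and CYP3A12, a drug-metabolising enzyme, by −2.66. Of the other rises, SLC11A1 differed by −0.95, the microfibril gene MFAP4 by −0.97 and UCHL1 by −1.17, while MX2 was higher in D6 by 1.40. Of the falls, NPFFR2 was higher in D6 by 2.02, FKBP5 by 1.37 and CYP1B1 by 0.80.

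Probe sets with several gene symbols or none were outside the comparison. Of 6163 such probe sets 127 rose in D2 against C (2.06%) and 203 fell (3.29%). Groups of 2 arrays are too small for a test of single arrays that stand apart.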

How the results depend on the processing

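The 902 rises of D2 against C became 499 when only genes above the median level were tested and 461 when a difference of at least 1 log2 was also asked for. The filter on level tests fewer genes, so a lower count under it is not by itself a lower share. With 1 of the 8 arrays left out they ranged from 258 to 1234. The 437 falls became 657 with only the 4 arrays of both groups fitted, 269 above the median level and 159 at 1 log2 or more, and ranged from 52 to 706 with 1 array left out. The 268 genes that differed between D6 and D2 became 482 with array weights and 49 above the median level, and ranged from 145 to 315 with 1 array left out. The replicate block, with the titles' array number as a factor, gave 721 rises, 327 falls and 241 genes for D6 against D2. Deviations of same-numbered arrays correlated at −0.158 for C and D2, −0.258 for D2 and D6 and 0.195 for C and DT6, and no label ties a number to an animal, so the arrays share only a number. Of 240 named genes past the threshold none turned sign: 213 stayed past it with the block, 234 in the fit of 4 arrays, 219 without the variance trend, 220 with equal array medians, and 107, 150, 101 and 123 without C array 1, C array 2, D2 array 1 and D2 array 2. These genes were chosen for passing on the same arrays, so a change of sign was unlikely from the outset. Differences that changed sign had not passed in the comparison concerned, and the cause was not tested. For D6 minus D2, SNTB1 was −0.0036 with quantile normalization, and with 1 array left out SNTB1 ranged from −0.0285 to 0.0301, AMELX from −0.2804 to 0.1892 and NPPC from −0.0782 to 0.5478. For D2 minus C with 1 array left out, SPP1 ranged from −0.1485 to 0.3012, TNFSF11 from −0.1471 to 0.1288, IL1B from −0.1383 to 0.3648 and IL6 from −0.1217 to 0.2745. The medians of 14 lists changed sign in at least 1 alternative. One was the spindle list, at −0.13 when fewer genes were tested, since 3 of its 34 members lay above the median level. The other 13 had medians of at most 0.24 in size. With 2 arrays a group and no detection call, genes near background are not separated from absent ones.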
